A study of Mus musculus with 4 samples.

Results

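Ptgds, Apod and Ttr encode secreted carrier proteins, and their RNA is described here in 4 single-cell libraries of mouse hippocampus as a measure of RNA shared between droplets. They are 3 of the 20441 genes with at least 1 UMI (unique molecular identifier, 1 counted RNA molecule). The 3 genes were chosen by their measured levels in these same libraries: each is high in a few cell classes, called source classes here, and low in the other barcodes. Levels in source classes against other barcodes are therefore a description with no test. Only the difference between genotypes, which played no role in choosing the genes, was tested across all genes.

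Ptgds encodes the lipocalin-type prostaglandin D synthase, which makes prostaglandin D2 and carries small lipophilic molecules in cerebrospinal fluid. Apod encodes apolipoprotein D, a lipocalin made by myelinating glia and by fibroblasts of the meninges and vessel walls, and Ttr encodes transthyretin, the carrier of thyroxine and of the retinol-binding protein that choroid plexus epithelium secretes. RNA freed from broken cells can be captured in any droplet, so a transcript that a few cells hold in large amounts can appear at a low level in barcodes of cells that do not make it. Red blood cells make none of the 3 RNAs and serve as the reference class. Ptgds lies on mouse chromosome 2 (25466709 to 25470110, GRCm38), Apod on chromosome 16 (31296192 to 31314808) and Ttr on chromosome 18, all outside the chromosome 10 segment that is duplicated in the mutant.

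The mice were males of 3 months on a C57BL/6J background: 2 hemizygous Dp(10)2Yey animals (Dp2Yey), in which the interval from Prmt2 to Pdxk is duplicated, and 2 wild-type littermates (WT). Hippocampi were dissociated with the Adult Brain Dissociation kit on 2 consecutive days, 1 mouse of each genotype per day, and 1 10x 3′ library was made per mouse; the labels do not say which mice were prepared together, so day was not tested. Values by genotype are given with replicate 1 first. WT replicate 1 had 1039 barcodes, 3002546 UMIs and a median of 2049 UMIs per barcode, and WT replicate 2 had 1708 barcodes, 6848466 UMIs and a median of 3669.5. Dp2Yey replicate 1 had 1372 barcodes, 5112759 UMIs and a median of 3386.5, and Dp2Yey replicate 2 had 2345 barcodes, 9612011 UMIs and a median of 3696. Of the 6464 barcodes, 8 sequences occurred in at least 2 libraries and 0 in 3.

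Over whole libraries, levels are given as UMIs of a gene per 1000000 UMIs of all genes (CPM). Ptgds had 2876 and 3401 CPM in WT and 3393 and 3285 in Dp2Yey (mean 3239, standard deviation (SD) 248; 80852 UMIs in all, place 20 by UMIs among all genes). Apod had 752 and 691 CPM in WT and 1001 and 513 in Dp2Yey (17037 UMIs, place 178). Ttr had 1143 and 1515 CPM in WT and 1192 and 1508 in Dp2Yey (34393 UMIs, place 86). The genotypes overlapped for all 3 genes; Ptgds was lowest in WT replicate 1, the smallest library, and Apod was lowest in Dp2Yey replicate 2, the largest. A UMI of Ptgds was present in 24.4% of all barcodes, of Apod in 17.8% and of Ttr in 4.12%.

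Clusters were named by fixed marker genes that do not include Ptgds, Apod or Ttr. The source classes were oligodendrocytes (128 barcodes in WT replicate 1, 313 in WT replicate 2, 223 in Dp2Yey replicate 1 and 309 in Dp2Yey replicate 2), choroid plexus epithelium (16, 35, 22 and 53 in the same order) and meningeal fibroblasts (9, 19, 8 and 21). All 19 oligodendrocyte markers, 21 choroid plexus markers and 23 fibroblast markers in the matrices had UMIs in their own class. The other 5308 barcodes, 82.1% of all barcodes with 76.7% of all UMIs, fell into 12 named classes and 2 clusters of low RNA content that were left unnamed: 557 barcodes led by Tyrobp and Cst3 (median 814 UMIs; 122, 128, 135 and 172 per library) and 56 barcodes led by Ppwd1 and C1ql1 (median 694 UMIs; 10, 15, 15 and 16).

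Ptgds in oligodendrocytes had 15170 CPM (8298 UMIs) and 13215 (22441 UMIs) in WT and 13799 (17087 UMIs) and 16404 (28503 UMIs) in Dp2Yey, and 94.6% of the 973 barcodes had a Ptgds UMI. Apod had 3832 and 2654 CPM in WT and 4067 and 2606 in Dp2Yey, with a UMI in 97.4% of barcodes. Both replicate 1 libraries were above both replicate 2 libraries for Apod, while for Ptgds the genotypes interleaved. The labels do not tie replicate numbers to days, so a cause of this order was not tested. Ttr was near absent from oligodendrocytes: 34 UMIs in 973 barcodes, 25 of them in Dp2Yey replicate 2.

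Ptgds and Apod were split differently over the 4 oligodendrocyte clusters. Cluster 11, led by Anln, Slco3a1, Hapln2, Klk6 and other genes (257 barcodes, median 6105 UMIs), had the lowest Ptgds level, 5072 CPM (SD 1722 over 4 libraries), and the highest Apod level, 5009 CPM (SD 1090). Cluster 7, led by Tspan2 and Mal (302 barcodes, median 5649 UMIs), had 17956 CPM of Ptgds and 2052 of Apod, and cluster 10, led by Opalin (285 barcodes, median 4178 UMIs), had 23029 and 2807. Per Apod UMI, cluster 11 held 1.36 Ptgds UMIs in WT replicate 1, 0.960 in WT replicate 2, 0.731 in Dp2Yey replicate 1 and 1.02 in Dp2Yey replicate 2, against 7.05, 9.91, 7.16 and 12.6 in cluster 7. The ranges did not overlap. Cluster 15 was shallow (129 barcodes, median 1189 UMIs, median mitochondrial share 16.7%) and had 16623 CPM of Ptgds and 3383 of Apod.

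**Figure D1:**
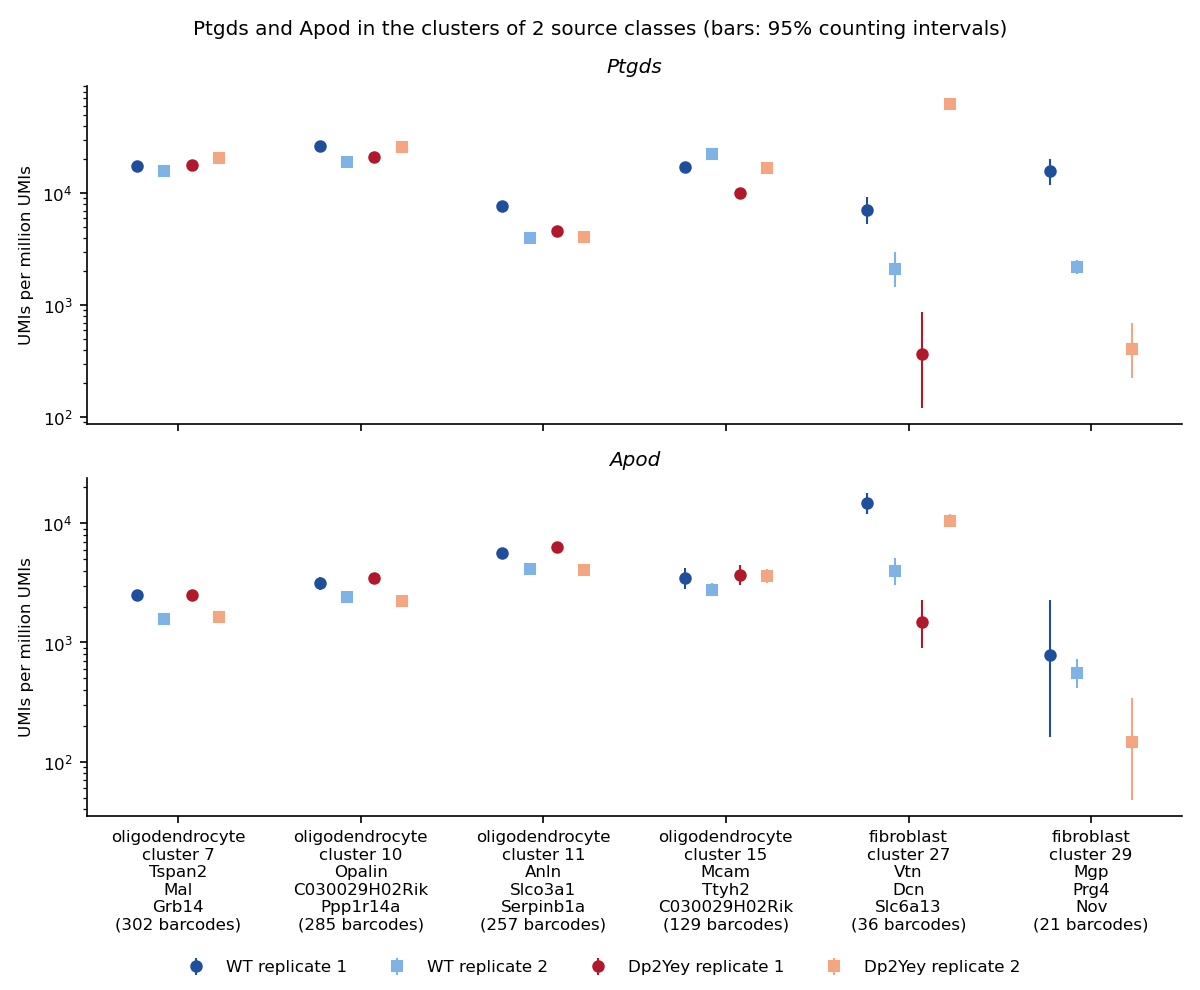
Ptgds and Apod in each cluster of oligodendrocytes and meningeal fibroblasts, 1 point per library, CPM on a logarithmic axis. Bars are 95% exact Poisson intervals and cover counting error only; clusters are labelled with 3 leading genes and their barcodes.

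Ttr in choroid plexus epithelium had 96666 CPM (3415 UMIs in 16 barcodes) and 151887 (10333 UMIs in 35) in WT and 161710 (6052 UMIs in 22) and 87696 (14207 UMIs in 53) in Dp2Yey. The genotypes interleaved, and 125 of 126 barcodes had a Ttr UMI. Ptgds had 1019 and 1573 CPM in WT and 1603 and 1284 in Dp2Yey, with a UMI in 77.8% of barcodes. Apod had 0 UMIs among the 302786 of this class; a count of 0 allows at most 12.2 CPM at the upper 95% limit. Choroid plexus epithelium thus held Ptgds in every library and Apod in none.

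Ptgds in meningeal fibroblasts had 10031 and 2179 CPM in WT and 369 and 27199 in Dp2Yey, on 5 to 1629 UMIs. Apod had 9849.99 and 1052 CPM in WT and 1476 and 4592 in Dp2Yey. With 8 to 21 barcodes per library the class was too small for a genotype fit, and its clusters were not spread evenly. Cluster 27 carried fibroblast and mural markers: the 14 barcodes with more fibroblast than mural marker UMIs had 63334 CPM of Ptgds (1542 UMIs) and 15361 CPM of Apod (374 UMIs, all 14 barcodes), and none of the 14 came from Dp2Yey replicate 1. The other 22 barcodes of the cluster, with at least as many mural as fibroblast marker UMIs, included all 8 barcodes of Dp2Yey replicate 1 in this class, so the 369 CPM of that library comes from no barcode with more fibroblast markers. These 22 had 4289 CPM of Ptgds and 2224 CPM of Apod, but the highest barcode counts were 126 of 162 Ptgds UMIs and 43 of 84 Apod UMIs, and only 6 and 5 of them had any. Cluster 27 held 51 and 33 Ptgds UMIs in WT and 5 and 1615 in Dp2Yey, and 1 barcode held 595, so its Ptgds level rests on Dp2Yey replicate 2. Cluster 29, led by Mgp, Prg4 and Nov (21 barcodes), had 2119 CPM of Ptgds, 455 CPM of Apod and 18 Ttr UMIs. This division of cluster 27 was made after seeing the data.

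Ranked by the mean over libraries, Ptgds was highest in oligodendrocytes (14647 CPM), meningeal fibroblasts (9945), the cluster led by Ppwd1 and C1ql1 (5577, SD 10303) and choroid plexus epithelium (1369.7), and these overlapped their neighbours. The ranges of choroid plexus epithelium and the next class, differentiating oligodendrocytes (394 CPM), did not overlap, but the cluster led by Tyrobp and Cst3, next in order (348 CPM, highest library 1151), overlapped choroid plexus epithelium. From there on every class overlapped the next: border macrophages had 263 CPM of Ptgds, mature neurons 198, endothelium 168, astrocytes 105, oligodendrocyte precursors 84.6, microglia 26.6, immature neurons 14.4 and red blood cells 5.85. Without barcodes of at least 10 Ptgds UMIs, the cluster led by Ppwd1 and C1ql1 had 367 CPM, differentiating oligodendrocytes 102, the cluster led by Tyrobp and Cst3 38.0, border macrophages 59.7, mature neurons 109, endothelium 49.8 and astrocytes 82.0, in another order. Such barcodes held 95.7% (2 barcodes), 78.3% (6), 90.5% (2), 78.4% (8), 57.8% (3), 69.8% (3) and 23.0% (3) of the Ptgds UMIs of these groups, so those ranks rest on few barcodes. Oligodendrocyte precursors had 46.7 CPM without 2 such barcodes, both called doublets, which held 55.0% of their Ptgds UMIs. Ependyma went from 50.1 to 22.9 CPM without 1 barcode that held 51.5%. For Apod, fibroblasts and oligodendrocytes overlapped each other and no other class; endothelium followed among named classes with 137 CPM, then border macrophages with 44.8 and mature neurons with 26.0; microglia had 2.50. For Ttr, only choroid plexus epithelium stood apart. The cluster led by Tyrobp and Cst3 had 247 CPM (highest library 887), or 25.5 without 1 barcode that held 148 of 162 UMIs. Fibroblasts had 51.1 CPM, astrocytes 18.8 (5.42 without 1 barcode that held 45 of 56 UMIs), microglia 6.30 and red blood cells 1.74. Neighbouring classes overlapped.

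**Figure D2:**
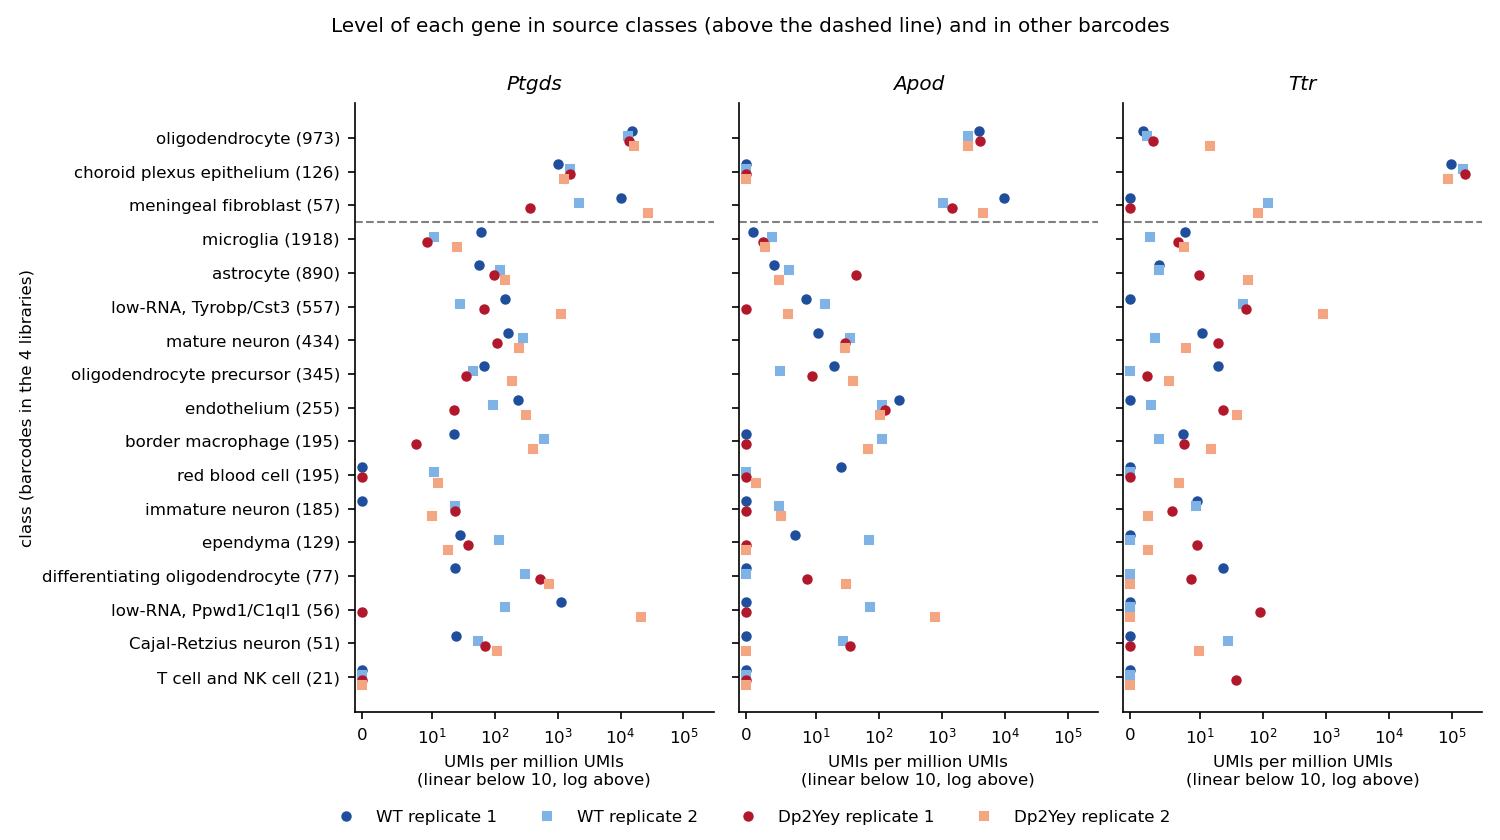
Ptgds, Apod and Ttr in each class, 1 point per library, CPM on an axis that is linear below 10 and logarithmic above. Source classes stand above the dashed line.

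In all barcodes outside the source classes together, Ptgds had 78.5 CPM (189 UMIs) and 103 (513 UMIs) in WT and 51.3 (196 UMIs) and 161 (1235 UMIs) in Dp2Yey. Apod had 22.0 CPM (53 UMIs) and 22.9 (114 UMIs) in WT and 16.5 (63 UMIs) and 16.1 (123 UMIs) in Dp2Yey. Ttr had 7.06 CPM (17 UMIs) and 4.62 (23 UMIs) in WT and 10.5 (40 UMIs) and 33.2 (254 UMIs) in Dp2Yey. Ptgds was highest in Dp2Yey replicate 2 and lowest in Dp2Yey replicate 1, so its genotypes overlapped; those of Apod and of Ttr did not, as for 4091 of the 13338 genes tested in these barcodes (30.7%).

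The share of a library's Ptgds UMIs that lay outside the source classes was 2.19% (95% interval 1.89% to 2.52%) and 2.20% (2.02% to 2.40%) in WT and 1.13% (0.978% to 1.30%) and 3.91% (3.70% to 4.13%) in Dp2Yey. The share of Apod was 2.35% and 2.41% in WT and 1.23% and 2.50% in Dp2Yey. The share of Ttr was 0.495% and 0.222% in WT and 0.656% and 1.75% in Dp2Yey. Without barcodes of at least 10 UMIs of the gene, Dp2Yey replicate 2 was at 1.09% for Ptgds (WT replicate 1 at 1.39%). It was then at 0.357% for Ttr (Dp2Yey replicate 1 at 0.656%), so it was not the highest for Ptgds or Ttr. For Apod it stayed the highest, at 2.02% (WT replicate 2 at 1.89%).

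Few barcodes held most of the Ptgds UMIs outside the sources. With a threshold of 10 UMIs, chosen after seeing the data, 32 of the 5308 barcodes (3 and 9 in WT and 3 and 17 in Dp2Yey) held 63.3% of them, 346 barcodes had 1 UMI, 145 had 2 to 9 and 4785 had 0. Of these 32 barcodes, 18 also had at least 10 UMIs of the 5 oligodendrocyte markers used below, as did 339 of the other 5276, and 4 were called doublets. The 32 had a median of 7247.5 UMIs of all genes, against 3132.5 in all barcodes outside the sources. Among them 6 were differentiating oligodendrocytes, a class with a median of 33.4% of the oligodendrocyte level of these markers. The part of depth and class in these counts was not tested. The largest counts were 221 Ptgds UMIs among 712 in a barcode of the cluster led by Ppwd1 and C1ql1 and 187 among 541 in one of the cluster led by Tyrobp and Cst3, both in Dp2Yey replicate 2. They had 0 UMIs of those oligodendrocyte markers and 3 and 4 UMIs of the fibroblast markers. Without the 32 barcodes, Ptgds had 49.7 and 43.0 CPM in WT and 31.1 and 44.4 in Dp2Yey, and the genotypes overlapped.

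Apod was less concentrated: 6 barcodes with at least 10 UMIs held 23.5% of its UMIs outside the sources, 5 of them had at least 10 UMIs of the oligodendrocyte markers and 3 were called doublets. Without them Apod had 14.2 and 18.0 CPM in WT and 12.6 and 12.98 in Dp2Yey. For Ttr, 3 barcodes of Dp2Yey replicate 2 held 148, 45 and 10 UMIs, 79.9% of that library's Ttr UMIs outside the sources. These barcodes had 8, 2 and 2 UMIs of the choroid plexus markers Enpp2, Calml4, 1500015O10Rik, Krt18 and Kl, among 779, 3000 and 14570 UMIs of all genes. Without these 3 barcodes, Ttr in Dp2Yey replicate 2 had 6.68 CPM, within the range of the other libraries.

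**Figure D3:**
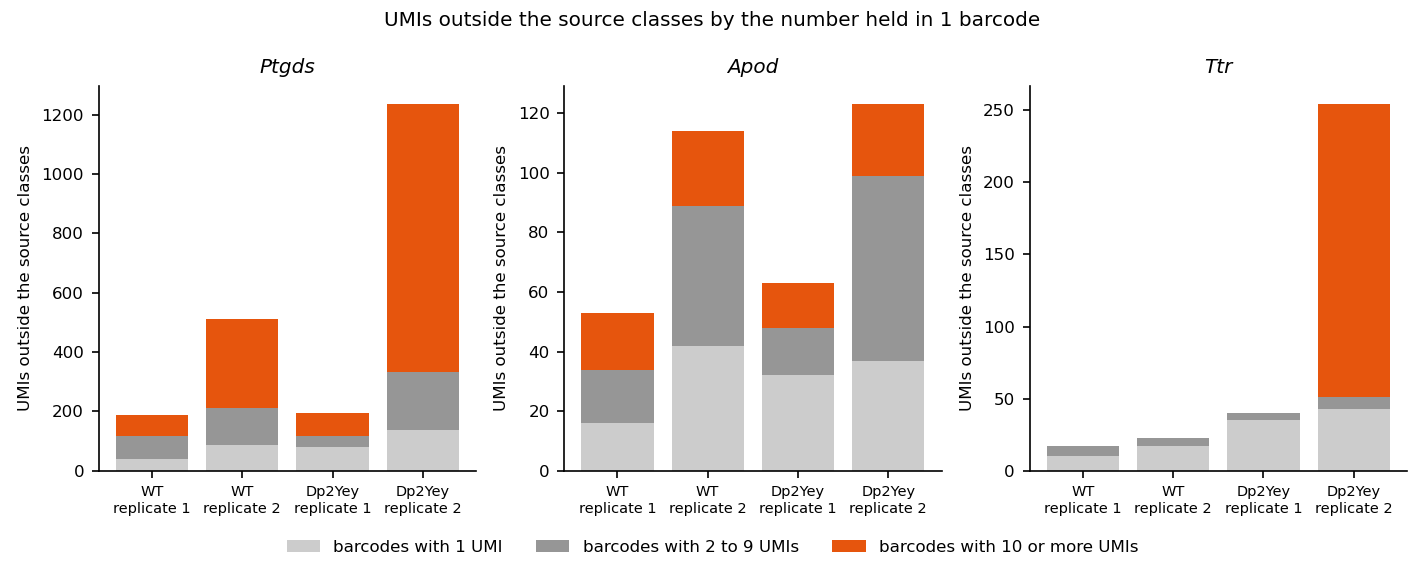
UMIs of Ptgds, Apod and Ttr outside the source classes in each library, divided by how many UMIs of the gene a barcode held. Each panel has its own axis.

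Red blood cells, at a median of 3740 UMIs against 3132.5 in all barcodes outside the sources and 4047 in microglia, held 10 Ptgds, 2 Apod and 5 Ttr UMIs in 195 barcodes, 138 of them from Dp2Yey replicate 2. Ptgds in red blood cells had 0 and 1 UMIs in WT and 0 and 9 in Dp2Yey. At a common depth of 1000 UMIs per barcode, Ptgds was detected in 1.08% of red blood cells, 1.38% of microglia, 4.86% of oligodendrocyte precursors, 7.89% of astrocytes and 12.8% of mature neurons; with all UMIs kept it was detected in 4.10%, 5.21%, 15.1%, 14.7% and 19.4%. Apod was detected in 0.552% of red blood cells, 0.303% of microglia and 10.3% of endothelium at 1000 UMIs, and in 1.03%, 1.15% and 25.1% with all UMIs. Ttr was detected in 0.772% of red blood cells and 0.628% of microglia at 1000 UMIs, and in 2.56% and 2.35% with all UMIs. The common depth left out 1054 shallower barcodes of the 5308.

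Barcodes outside the sources were divided into 4 groups of equal size by depth within each library. With all of them, Ptgds in the shallowest and the deepest group had 569 and 54.9 CPM in WT replicate 1 and 108 and 107 in WT replicate 2. It had 101 and 57.1 in Dp2Yey replicate 1 and 1345 and 126 in Dp2Yey replicate 2. In WT replicate 2 the shallowest and the deepest group were alike, but the groups between them had 165 and 58.3 CPM. The next values leave out barcodes with at least 10 Ptgds UMIs. In Dp2Yey replicate 2 the mean was 0.138 Ptgds UMIs per barcode in the shallowest group (median 786 UMIs) and 0.264 in the deepest (median 6422 UMIs), in WT replicate 2 it was 0.0982 (median 847.5 UMIs) and 0.216 (median 6217 UMIs), in Dp2Yey replicate 1 0.0821 (median 784.5 UMIs) and 0.126 (median 6308.5 UMIs), and in WT replicate 1 it went the other way, 0.259 (median 630.5 UMIs) and 0.127 (median 5182.5 UMIs). As CPM, Ptgds in the same groups was then 403 and 21.0 in WT replicate 1, 108 and 29.1 in WT replicate 2, 101 and 17.9 in Dp2Yey replicate 1 and 159.7 and 33.6 in Dp2Yey replicate 2. Per barcode, the groups between them had means of 0.0633 and 0.0905 UMIs in WT replicate 1 and 0.147 and 0.174 in WT replicate 2. In Dp2Yey replicate 1 they had 0.157 and 0.0573, and in Dp2Yey replicate 2 0.137 and 0.149. Only in WT replicate 2 did the mean rise at every step of depth.

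Ptgds and Apod were set beside the 5 oligodendrocyte markers with most UMIs, each in percent of its level in oligodendrocytes with the 4 libraries summed. In red blood cells Ptgds had 0.0731%, Apod 0.0691% and the markers a median of 0.101% (0% to 1.65%). Summed, red blood cells had 10.7 CPM of Ptgds, 2.14 of Apod and 5.35 of Ttr, against means over libraries of 5.85, 6.55 and 1.74. In microglia Ptgds had 0.156%, Apod 0.0888% and the markers 0.883% (0.0809% to 13.3%). Astrocytes had 0.801% for Ptgds and 0.467% for Apod beside 0.635% for the markers, and oligodendrocyte precursors 0.651% and 0.631% beside 0.849%. The 5 markers spread widely in each class, so no agreement or difference is read from their range.

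The cluster led by Ppwd1 and C1ql1 had 42.9% for Ptgds and 7.98% for Apod beside 1.94% for the markers (0.867% to 10.2%). In this cluster 2 barcodes of Dp2Yey replicate 2, with 0 UMIs of the markers, held 267 of the 279 Ptgds UMIs. Ptgds had 6267 CPM with them and 277 without them, libraries summed. Of the 11 Apod UMIs of the cluster, 10 lay in Dp2Yey replicate 2. Ependyma had 0.288% for Ptgds and 0.494% for Apod beside 1.52% for the markers (0.641% to 5.17%). Border macrophages had 2.36% for Ptgds and 1.92% for Apod beside 1.85% for the markers (0.751% to 15.6%), and mature neurons 1.52% and 0.976% beside 1.25% (0.847% to 67.4%). Apod in endothelium had 4.18% of the oligodendrocyte level, against 1.26% for Ptgds and a median of 0.649% for the markers (0.133% to 5.73%), and it was present in all libraries: 206 and 112 CPM in WT and 127 and 103 in Dp2Yey. The border macrophages of cluster 20, led by Pf4 and Mrc1 (85 barcodes), had 8.14% for Ptgds and 6.87% for Apod beside 5.02% for the markers. Its 8 barcodes with at least 10 Ptgds UMIs held 228 of the 291 Ptgds UMIs of border macrophages, and 2 barcodes, both called doublets, held 25 of the 50 Apod UMIs. Cluster 18 of the same class, led by S100a8 and S100a9 (110 barcodes), had 0.124% and 0% beside 0.700%. Mature neurons differed by cluster as well: cluster 6, led by Kif5a (318 barcodes, median mitochondrial share 33.0%), had 3.13% for Ptgds and 2.00% for Apod beside 2.50% for the markers (1.80% to 141%), and cluster 17, led by Nrgn (116 barcodes), had 0.125% and 0.0910% beside 0.166%. Differentiating oligodendrocytes had 3.18% of the Ptgds level and 0.379% of the Apod level beside 33.4% for the markers. Whether a class makes a low amount of Ptgds or Apod itself was not tested.

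Ttr in percent of its choroid plexus level was 0.00476% in red blood cells, 0.00557% in microglia, 0.0240% in astrocytes and 0.0158% in all barcodes outside the sources. The 5 choroid plexus markers had medians of 0%, 0.0149%, 0.117% and 1.35% in the same groups. In choroid plexus epithelium these markers had 406 (Kl) to 3702 (Enpp2) CPM, against 112314 for Ttr with the libraries summed. A median at or near 0% can therefore come from few UMIs alone, so it is not read as a difference from Ttr. Without barcodes of at least 10 Ttr UMIs, astrocytes went from 27.0 to 5.31 CPM of Ttr. All barcodes outside the sources went from 17.7 to 6.95 CPM, with the libraries summed. Ependyma held 2 Ttr UMIs in 129 barcodes, 0.00227% of the choroid plexus level, while those markers had a median of 23.4% there.

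**Figure D4:**
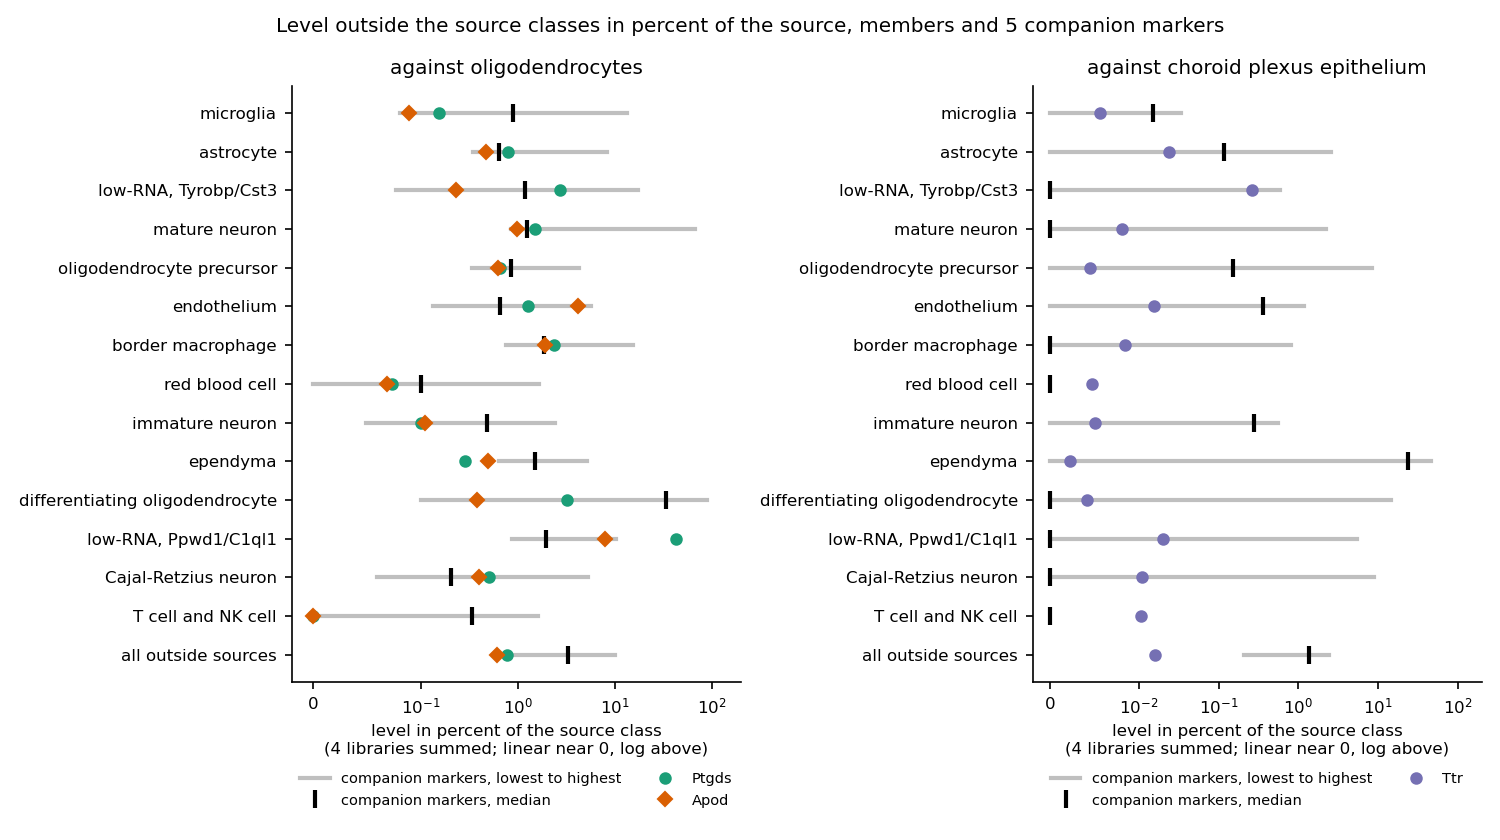
Ptgds and Apod in percent of their oligodendrocyte level, and Ttr in percent of its choroid plexus level, in each class outside the sources (4 libraries summed). Grey lines span 5 markers of the same source, black ticks are their medians, and the axes are linear near 0.

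Among the UMIs of the 3 genes in all barcodes, 61.1% were Ptgds, 12.9% Apod and 26.0% Ttr. In all barcodes outside the sources, 75.6% were Ptgds (95% interval 74.0% to 77.2%), 12.5% Apod (11.3% to 13.8%) and 11.8% Ttr (10.7% to 13.1%). These intervals cover counting error only and take UMIs as independent. Without barcodes of at least 10 UMIs of a gene, the shares were 66.1% Ptgds, 22.8% Apod and 11.1% Ttr. With all barcodes, the share of Ttr ran from 3.54% in WT replicate 2 to 15.8% in Dp2Yey replicate 2. The 17 such UMIs of red blood cells were 58.8% Ptgds (95% interval 32.9% to 81.6%), 11.8% Apod (1.46% to 36.4%) and 29.4% Ttr (10.3% to 56.0%). Microglia had 71.7% Ptgds (65.7% to 77.1%), 8.66% Apod (5.51% to 12.8%) and 19.7% Ttr (14.98% to 25.1%) among 254 UMIs. Endothelium had 39.1% Apod (34.0% to 44.4%) among 358, and oligodendrocyte precursors had 4.21% Ttr (1.84% to 8.13%) among 190; without barcodes of at least 10 UMIs of a gene these were 63.7% and 8.42%.

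Over 66 sums by class and library, which share libraries and barcodes, the genes nearest to Ptgds among 13360 were Apod (r = 0.74 on log2 CPM), Car14 (0.73), Lzts2 (0.66), Cryab (0.65) and Sept4 (0.65). Apod was nearest to Ppp1r14a (0.80), Mcam (0.79), Ndrg1 (0.76), Slco3a1 (0.76) and Gng11 (0.74). Ttr was nearest to 2900040C04Rik (0.94), Prr32 (0.93), Frmpd1os (0.93), Cox8b (0.93) and Prlr (0.92), of which Prlr is a choroid plexus marker. Ttr had r = 0.27 with Ptgds and −0.18 with Apod.

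The genotypes were compared on UMIs summed per mouse, with edgeR quasi-likelihood and Benjamini-Hochberg adjustment over all genes of a fit and a threshold of adjusted p under 0.01; with 2 mice per group an exact permutation test cannot go below p = 0.33. With 1 library left out, a group has 1 mouse, which is assumed to vary like those of the other group, so those fits are given without p. In whole libraries 0 of 13768 genes passed (0%), 392 had an unadjusted p under 0.05, and DESeq2 called 3. None of the 3 genes was among those: the log2 difference, Dp2Yey minus WT, was 0.13 for Ptgds (standard error (SE) 0.16), 0.11 for Apod (SE 0.27) and 0.07 for Ttr (SE 0.19), each with an adjusted p = 0.9999. Apod was at −0.42 without Dp2Yey replicate 1, and Ttr was at −0.12 without WT replicate 1 and at −0.13 without Dp2Yey replicate 2.

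In oligodendrocytes 0 of 8627 genes passed (0%), or 20 with replicate number as a block, and Ptgds and Apod were not among those 20. Without the block, 224 had an unadjusted p under 0.05 by edgeR and 0 were called by DESeq2. Ptgds differed by 0.08 (SE 0.17, adjusted p = 0.9999; −0.053 without Dp2Yey replicate 2) and Apod by 0.03 (SE 0.21, adjusted p = 0.9999; −0.20 without WT replicate 2 and −0.31 without Dp2Yey replicate 1). In choroid plexus epithelium 0 of 770 genes passed (0%; 28 with unadjusted p under 0.05 by edgeR, 0 called by DESeq2). Ttr differed by −0.11 (SE 1.12, adjusted p = 0.986), by 0.42 without WT replicate 2 and by 0.35 without Dp2Yey replicate 2.

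In barcodes outside the source classes 0 of 13338 genes passed (0%; 467 with unadjusted p under 0.05 by edgeR, 2 called by DESeq2). Ptgds differed by 0.31 (SE 0.44, adjusted p = 0.9998) and by −0.80 without Dp2Yey replicate 2. Apod differed by −0.41 (SE 0.19, adjusted p = 0.9998). Ttr differed by 2.10 (SE 0.55, adjusted p = 0.9998). With 2 mice per group it passed the threshold only where genes of low counts were kept (2.11, edgeR adjusted p = 2.3e-10), and it was at 2.66 without Dp2Yey replicate 1. Of the 254 Ttr UMIs of Dp2Yey replicate 2, 203 lay in the 3 barcodes described above.

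Over the 13 classes and unnamed clusters with at least 10 barcodes in every library, 21 of 52255 gene tests passed (0.0402%; 16 higher and 5 lower in Dp2Yey, 1875 with unadjusted p under 0.05). Of 22 tests of Ptgds, Apod and Ttr in these classes, whole libraries and barcodes outside the sources, 0 passed by edgeR and 0 by DESeq2, and 4 had an unadjusted p under 0.05 by edgeR and 1 by DESeq2. Ptgds in oligodendrocyte precursors, where 7 of 7293 genes passed (0.0960%), had 67.4 and 46.1 CPM in WT and 35.6 and 189 in Dp2Yey. It differed by 1.14 (SE 0.34, adjusted p = 0.378), by 1.82 without Dp2Yey replicate 1, by −0.60 without Dp2Yey replicate 2 and by −0.54 with called doublets removed. Atf3 (2.77) and Sdf2l1 (1.35) were among the 7, of which 0 passed by DESeq2, 0 without WT replicate 2, 0 without Dp2Yey replicate 2 and 4 with called doublets removed. With WT before Dp2Yey and replicate 1 first, Ptgds in the cluster led by Ppwd1 and C1ql1 had 8, 2, 0 and 269 UMIs (4.06, SE 1.03, edgeR adjusted p = 0.0657). Of the 269 UMIs, 221 and 46 lay in 2 barcodes. Ptgds in this cluster passed with RLE factors (4.10), with no filter on low counts (4.47) and with called doublets removed (4.12). It also passed with barcodes over 20% mitochondrial UMIs removed (4.21). It differed by 5.99 without WT replicate 1 and by 5.07 without Dp2Yey replicate 1. Ptgds in the cluster led by Tyrobp and Cst3 had 17, 4, 9 and 192 UMIs (2.85, SE 0.87, edgeR adjusted p = 0.9995). Of the 192 UMIs, 187 lay in 1 barcode. Ptgds in this cluster differed by 4.36 without WT replicate 1, by 1.97 without WT replicate 2 and by 3.66 without Dp2Yey replicate 1. Ttr in the same cluster had 0, 7, 7 and 148 UMIs, the 148 in 1 barcode, and differed by 3.21, 9.01 and 4.87 in the same fits. With no filter on low counts, Ptgds (2.82) and Ttr (4.05) passed in this cluster.

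In microglia 5 of 8967 genes passed (0.0558%), of which 3 passed by DESeq2, 0 without Dp2Yey replicate 1 and 0 without Dp2Yey replicate 2. Hbb-bs had 16, 49, 301 and 1076 UMIs in the same order of libraries (log2 difference 3.65, SE 0.25, adjusted p = 9.2e-10), with Hba-a1 (3.47) and Hba-a2 (3.27) also higher in Dp2Yey. Ptgds in microglia had 62, 23, 15 and 82 UMIs (−0.69, SE 0.45, adjusted p = 0.9996; −1.67 without WT replicate 2), and Ttr 8, 6, 11 and 25 UMIs (0.65, SE 0.50, adjusted p = 0.9996). Red blood cells numbered 18, 22, 17 and 138 in these libraries. Whether hemoglobin follows their number was not tested. In astrocytes 5 of 6553 genes passed (0.0763%), among them the microglial gene Cx3cr1 (4.24) and Gm26870 (1.45); of the 5, 2 passed by DESeq2 and 0 without WT replicate 2. Ptgds in astrocytes differed by 0.30 (SE 0.26, adjusted p = 0.999). Ttr in astrocytes had 1, 2, 5 and 48 UMIs, 45 of them in 1 barcode. It passed with no filter on low counts (3.11) and was at 3.65 without Dp2Yey replicate 1. In border macrophages 4 of 2733 passed (0.146%), all of them also by DESeq2. With RLE factors 3 of the 4 passed, and with barcodes over 20% mitochondrial UMIs removed 3 passed as well. Among the 4 were S100a9 with 0, 0, 603 and 1033 UMIs, S100a8 with 0, 0, 446 and 999 and S100a6 with 1, 0, 101 and 111. S100a8 and S100a9 are markers of neutrophils and monocytes and lead cluster 18 of this class; the part of those cells in the result was not tested. Ptgds in border macrophages had 3, 148, 1 and 139 UMIs (−0.45, SE 1.08, adjusted p = 0.9995; −5.34 without Dp2Yey replicate 2).

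**Figure D5:**
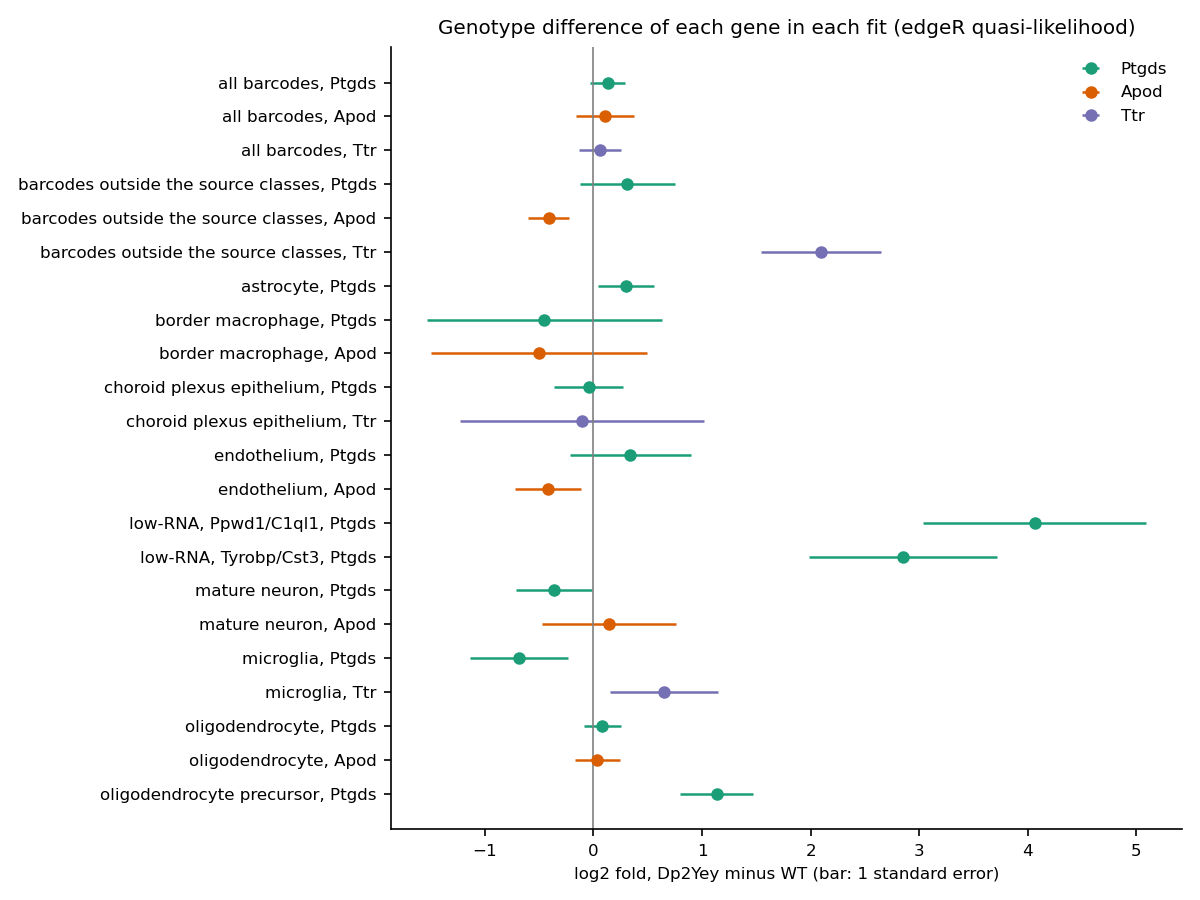
Log2 difference of Ptgds, Apod and Ttr between Dp2Yey and WT in each fit in which the gene passed the filter on low counts, with 1 standard error (edgeR quasi-likelihood, 2 mice per group).

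The 4 gene lists around the 3 genes held no gene past the threshold by edgeR in any fit before alternatives; the lists hold Ptgds, Apod and Ttr themselves, and Ptgds and Ttr passed in alternatives. In whole libraries, 8 of 27 genes of the lipocalin family were tested, with a median log2 difference of 0.14, 11 of 15 genes of prostaglandin D2 synthesis and reception (−0.03), 15 of 22 of thyroid hormone and retinol transport (0.06) and 17 of 25 of apolipoproteins and lipid efflux (−0.02). The median over all 13768 genes was −0.0048. Each list had 1 gene with an unadjusted p under 0.05 by edgeR, beside 392 of the 13768 genes. Outside the sources, 467 of 13338 genes were under 0.05. There thyroid hormone and retinol transport had 4 of 15, apolipoproteins and lipid efflux 2 of 17, the lipocalin family 1 of 8 and prostaglandin D2 synthesis and reception 1 of 11.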

How the data were processed

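Each of the 4 samples is 1 mouse hippocampus library; the authors deposited a filtered matrix of UMIs (unit: count) per library, made with Cell Ranger 3.0.2 and mm10 per the submitters' processing notes. All deposited barcodes were used, including doublets: Scrublet (in scanpy 1.11.5, Python 3.11.15) called 53 (0.820%), which were kept and removed in an alternative. Ptgds, Apod and Ttr, the marker lists and the gene lists were chosen with earlier results of these data known. Barcodes were clustered in Seurat 5.3.0 (R 4.3.3) with canonical correlation analysis, 2000 variable genes without the 3 genes, 50 dimensions and resolution 2. A cluster took a class name when at least 3 of its 10 leading genes were markers of that class and no other class had more. Chosen after seeing the data were 4 steps: a cluster without such a name took that of the broader cluster (resolution 0.2, then 0.05) that held it, clusters with a median under 1000 UMIs took no broader name, barcodes with 10 or more UMIs of a gene outside the sources were looked at alone, and cluster 27 was divided by fibroblast and mural marker UMIs. No profile of empty droplets was used.

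Levels are summed UMIs per 1000000 UMIs in each class and library, with exact Poisson or binomial 95% intervals. For equal depth, each barcode was thinned to 1000 UMIs by its exact hypergeometric probability of keeping a UMI of the gene. Genotypes were compared on UMIs summed per library and class with edgeR 4.0.16 (TMM, filterByExpr by genotype, quasi-likelihood F test, Benjamini-Hochberg over the genes tested); no term for day was used. Ranking of leading genes, correlations and genotype fits were tested on simulated data. Alternatives were DESeq2 1.42.0, RLE factors, no filter, a replicate block, each library left out, doublets or barcodes over 20% mitochondrial UMIs removed, at least 200 genes per barcode without red blood cells, classes from marker UMIs and clustering without integration. Genes named are the 3 members, for each the 5 genes of highest correlation, the 5 source markers with most UMIs, list genes past the threshold, at most 3 genes of largest change past the threshold in a fit, and leading genes of clusters. The 4 lists are the lipocalin family, prostaglandin D2 synthesis and reception, thyroid hormone and retinol transport, and apolipoproteins and lipid efflux.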

Additional observations from a re-analysis of the deposited data

How the results depend on the processing

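Levels of Ptgds and Apod in oligodendrocytes and of Ttr in choroid plexus moved by less than 1 SD between libraries under every alternative. In meningeal fibroblasts the SD is near or above the mean, and Ptgds went from 9945 to 5151 CPM and Apod from 4243 to 2026 CPM without integration; with classes from marker UMIs Ptgds was at 13019 CPM and Ttr at 61194 (51.1 with clusters), where Dp2Yey replicate 1 has 1 such barcode. Outside the sources, Apod had a mean of 28.8 CPM and Ttr 50.6 CPM with classes from marker UMIs without clustering (19.4 and 13.8 with clusters), 3.06% and 2.95% of their UMIs (2.12% and 0.781%) and 0.925% and 0.0430% of the source level (0.615% and 0.0137%); the cause was not tested. Without barcodes of 10 or more UMIs of the gene, an alternative chosen after seeing the data, Ptgds had 42.0 CPM (98.6 with them), 1.02% of UMIs (2.36%) and 0.287% of the source level (0.663%), and Apod 14.4 CPM. Ttr then had 7.21 CPM (13.8 with them), 0.433% of UMIs (0.781%) and 0.00611% of the source level (0.0137%). As mean UMIs per barcode the levels outside the sources were 0.350 for Ptgds, 0.0660 for Apod and 0.0504 for Ttr. With all UMIs in place of 1000 per barcode, a UMI was found in 9.44% for Ptgds (4.25% thinned), 3.32% for Apod (1.40%) and 2.15% for Ttr (0.792%) of other barcodes, mean over libraries. The other alternatives moved these values by less than 1 SD, but the SD of Ttr comes mostly from 1 library: clustering without integration gave 9.08 CPM of Ttr outside the sources and 0.00820% of the source level, with Dp2Yey replicate 2 at 13.96 CPM (33.2 with integration). Of the tests of Ptgds, Apod and Ttr between genotypes, 0 passed by edgeR, by DESeq2 and with replicate number as a block; 1 passed with RLE factors, 1 with doublets removed and 1 with barcodes over 20% mitochondrial UMIs removed, each time Ptgds in the cluster led by Ppwd1 and C1ql1; 5 of 44 passed with no filter on low counts; and 1 to 6 passed with 1 library left out. Over 13 classes, 21 genes passed at adjusted p under 0.01, 26 at 0.05, 10 by DESeq2, 22 with RLE factors, 144 with no filter, 60 with the block and 102 to 270 with 1 library left out, where the lone mouse of a group is assumed to vary like those of the other group. The correlation of replicate differences that share a number was −0.0010 in whole libraries, and by class it ran from −0.230 in choroid plexus to 0.240 in oligodendrocytes; the labels tie no number to a day, so the samples share only a number. With the block, 20 genes passed in oligodendrocytes (0 without it) and 18 in microglia (5). With 1 library left out, the log2 difference ranged from −0.42 to 0.50 for Apod and −0.13 to 0.29 for Ttr in whole libraries, from −0.053 to 0.21 for Ptgds and −0.31 to 0.32 for Apod in oligodendrocytes, from −0.76 to 0.42 for Ttr in choroid plexus (0.0013 with barcodes over 20% mitochondrial UMIs removed), from −0.80 to 0.91 for Ptgds outside the sources and from −0.60 to 1.82 for Ptgds in oligodendrocyte precursors (−0.54 with doublets removed). Limits: each group has 2 mice; counting intervals leave out differences between mice; meningeal fibroblasts (57 barcodes) and choroid plexus (126) are few; red blood cells lie mostly in 1 library; fits on small classes rest on few UMIs of these genes; no empty-droplet profile was used, so free RNA was read from cell barcodes only.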
